A study of Mus musculus with 7 samples.

Results

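The stearoyl-CoA desaturase genes of the mouse are Scd1, Scd2, Scd3 and Scd4. The members were taken by symbol: every transcript cluster whose array annotation gives a single symbol, and that symbol 1 of these 4, with the cluster of the highest mean where a gene had several. All 4 genes were found, among 18820 genes measured in all. Each had 1 cluster on the array, namely 10467979 for Scd1, 10463355 for Scd2, 10463347 for Scd3 and 10463361 for Scd4, and no other cluster carried a member's symbol.

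The material was the mouse cell line 3T3-L1, whose cells resemble fibroblasts while they divide and become fat cells in culture once a hormone mixture is given. The inhibitor group consisted of 3 arrays from cells given 1 µM of a commercially sold SCD inhibitor, and the DMSO group of 4 arrays from cells given an equal volume of that solvent. Differentiation of both groups was set off by 2 days of human insulin, dexamethasone and isobutylmethylxanthine, and human insulin alone followed, with inhibitor or solvent present throughout, and total RNA was taken on day 7. The compound is not named in the labels, 3T3-L1 is a single cell line, and the labels do not say whether replicates were separate cultures, so the spread behind each p-value is that of these arrays and may be technical.

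The enzymes encoded by these genes sit in the membrane of the endoplasmic reticulum and insert a double bond into saturated fatty acyl-CoA. Depending on the enzyme, palmitate is turned into palmitoleate, stearate into oleate, or both, and neither product was measured here. These enzymes draw electrons from cytochrome b5, which is in turn reduced by a cytochrome b5 reductase. Their products go into triacylglycerol, phospholipid and cholesterol esters, and palmitoleate is also attached to Wnt proteins. Scd1 is the main form in mouse fat and liver, Scd2 is widely expressed and prominent in brain, Scd3 is known from sebaceous and Harderian glands, and Scd4 is known from the heart.

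With the inhibitor, Scd3 was 2.96-fold lower, and no difference in Scd1, Scd2 or Scd4 passed the test. Expression levels here are log2 values from RMA, in which a difference of 1 is a doubling of the signal, and differences are SCD inhibitor minus DMSO. Of the 4 members 1 passed limma's test at an adjusted p of 0.05 over all genes, where 8% of all genes passed. The other members had differences of 0.03, -0.0031 and 0.02, against a median of -0.0037 over all genes tested.

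Scd3 read 9.38, 9.30 and 9.36 in the arrays of inhibitor-treated cells, against 10.99, 10.90, 10.82 and 10.95 in the DMSO arrays. The 3 inhibitor values were thus all below the 4 DMSO values, and the empty gap of 1.44 between the groups was 8.47 times the range of the DMSO arrays. The group means were 9.35 ± 0.040 with the inhibitor (SD, n = 3) and 10.91 ± 0.073 in DMSO (SD, n = 4). The log2 difference was -1.57 (SE 0.043, 95% interval -1.67 to -1.46), with an adjusted p of 2.46e-05 in limma. On the linear scale the Scd3 signal with the inhibitor was 33.8% of that in DMSO. An exact two-sided permutation test over the 7 arrays gave p = 0.0286, the smallest value that the 35 possible splits allow. Groups did not overlap in 17.3% of all genes tested.

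**Figure D1:**
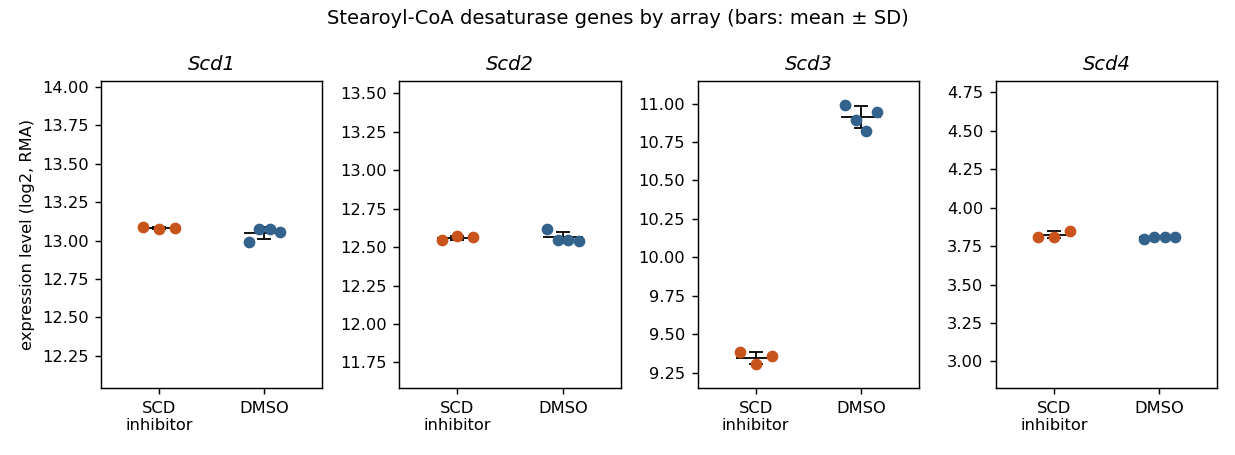
Expression level of each stearoyl-CoA desaturase gene on every array (log2, RMA), with the 3 SCD inhibitor arrays left of the 4 DMSO arrays in each panel and bars for the mean ± SD. Every vertical axis spans the same range of log2 units around its own gene, and the groups stand apart for Scd3, with means of 9.35 with the inhibitor and 10.91 in DMSO, while they overlap or share values for Scd1, Scd2 and Scd4.

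Scd1, known as the main form in mouse fat, read 13.09, 13.07 and 13.08 with the inhibitor, against 12.99, 13.07, 13.07 and 13.05 in DMSO. The lowest value was that of DMSO 1, and SCD inhibitor 2 shared its value with DMSO 2 and DMSO 3. The means were 13.08 ± 0.0059 with the inhibitor (SD, n = 3) and 13.05 ± 0.040 in DMSO (SD, n = 4). The difference of 0.03 (SE 0.025) did not pass (adjusted p = 0.507 in limma). Its 95% interval on the linear scale ran from 0.981 to 1.066 times the DMSO signal.

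Scd2 read 12.55, 12.57 and 12.57 with the inhibitor, against 12.62, 12.55, 12.55 and 12.54 in DMSO. The highest value of all 7 was DMSO 1, and the inhibitor values lay within the range of the DMSO arrays. The means were 12.56 ± 0.013 with the inhibitor (SD, n = 3) and 12.56 ± 0.036 in DMSO (SD, n = 4), with adjusted p = 0.959 in limma. The 95% interval ran from 0.959 to 1.039 times the DMSO signal. The sign of the Scd2 difference depended on the scaling: it was -0.0031 on the deposited values, 0.020 after a further quantile normalization and 0.0096 with the arrays centred on their medians.

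Scd4 read 3.81, 3.81 and 3.85 with the inhibitor, against 3.80, 3.81, 3.81 and 3.81 in DMSO. The same value stood on 5 of the 7 arrays, with SCD inhibitor 3 above it and DMSO 1 below. The means were 3.82 ± 0.022 with the inhibitor (SD, n = 3) and 3.81 ± 0.0068 in DMSO (SD, n = 4), and the difference of 0.02 (SE 0.018) did not pass (adjusted p = 0.64 in limma). Values of the whole table ran from 2.23 to 13.25, so Scd4 lies near the lower end, where no statement is made on whether the gene was expressed.

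Exact repeats such as these were common in the deposited table: 54.6% of all genes had the same value on at least 3 arrays. The SD of such a gene, Scd1 and Scd4 included, is taken over fewer distinct values than arrays (5 for Scd1, 6 for Scd2, 7 for Scd3 and 3 for Scd4, over 7 arrays).

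The place of a gene on the measuring scale bears on what could be seen. Among the 100 genes nearest in level to Scd1, which lie between 11.87 and 13.15, as do the 100 nearest to Scd2, 6 passed limma's test. The largest difference among them was that of Cct2, a subunit of a chaperonin of the cytosol, at -0.53. Its mean level of 11.88 is at the bottom of that band, and no brighter gene was called with a difference over 0.5 in size. At 12 and above, where Scd1 and Scd2 lie, 2 of 76 genes passed. Among the 100 genes nearest to Scd3, between 10.20 and 10.28, 17 passed, and the largest difference was that of Cox8b, a cytochrome c oxidase subunit, with a size of 0.94. The Scd3 difference of -1.57 was larger in size than that of each of these 100 genes. Among the 100 genes nearest to Scd4, between 3.80 and 3.83, 2 passed. Differences of the dimmest and brightest clusters may come out too small in RMA values, by an unknown amount, which touches Scd1, Scd2 and Scd4.

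**Figure D2:**
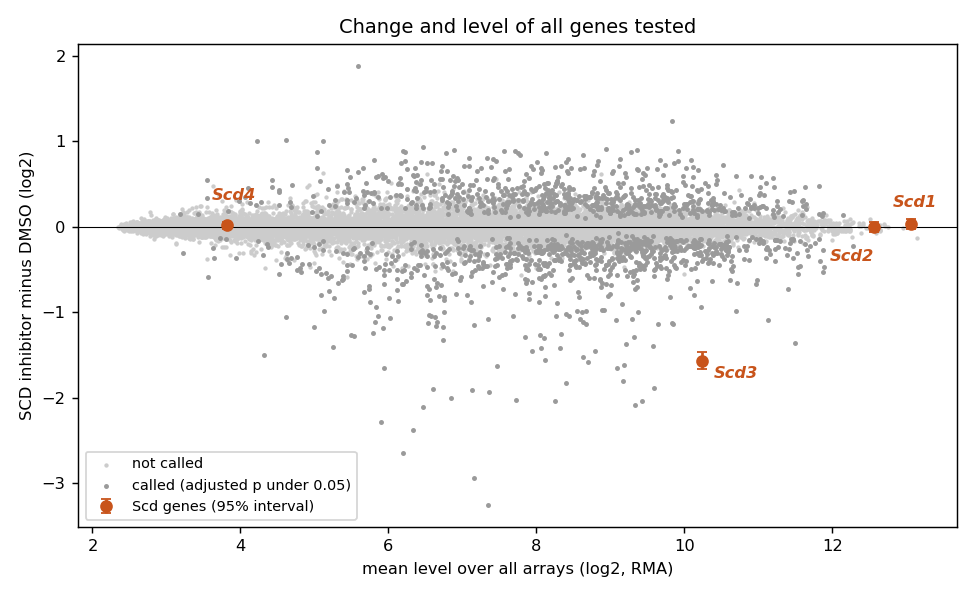
Difference between SCD inhibitor and DMSO (log2) against the mean level over all 7 arrays (log2, RMA) for the 18820 genes tested, with called genes in darker grey and the 4 Scd genes in colour with their 95% intervals. Scd3 lies at -1.57 at a mean level of 10.24, in the upper part of the scale, Scd1 and Scd2 lie near 0 at its upper end and Scd4 near 0 at its lower end.

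Whether the members responded unequally was asked within arrays, by taking the log2 difference between 2 members on each array and comparing that between the groups, for all 6 pairs. The response of Scd3 differed from that of Scd1 by -1.599 (SE 0.066), from that of Scd2 by -1.56 (SE 0.041) and from that of Scd4 by -1.58 (SE 0.050). In these 3 pairs the inhibitor and DMSO arrays did not overlap, and the exact two-sided permutation test gave p = 0.0286 each, or 0.0571 adjusted over the 6 pairs. That is above 0.05, and with 35 splits no pair can fall below 0.0286 before adjustment. The responses of Scd1 and Scd2 differed by 0.04 (SE 0.045), those of Scd1 and Scd4 by 0.02 (SE 0.022) and those of Scd2 and Scd4 by -0.02 (SE 0.028). In these pairs the groups overlapped (exact permutation p from 0.543 to 0.686, adjusted 0.686), which does not show that the members respond alike. Members of this family are close relatives in sequence, and the probes were not analysed here, so how far a cluster also picks up transcripts of another member was not tested.

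The 4 genes lie side by side on chromosome 19, in the order Scd3, Scd2, Scd4, Scd1, between Pkd2l1 and Wnt8b, per RefSeq (GRCm38.p6). Around the cluster, within 500 kb of its outer ends, 16 other protein-coding genes were measured, and in limma none of them passed, where 8% of all genes did. Before adjustment 4 had p under 0.05 as higher and 2 as lower, against 2052 and 2075 of all 18820 genes. Their differences ran from -0.14 to 0.20, with a median of 0.03. Pkd2l1, a channel gene next to Scd3, read 3.92 with the inhibitor and 4.03 in DMSO, a difference of -0.12. Wnt8b, next to Scd1, read 3.53 with the inhibitor and 3.57 in DMSO, a difference of -0.03. Pkd2l1 and Wnt8b thus lie near the lower end of the scale, where differences may come out too small. Of the 16 neighbours, 9 remained in the fit that drops the dimmest 50% of genes. Bloc1s2, which encodes a subunit of a complex in lysosome biogenesis, had the highest difference of 0.20 (adjusted p = 0.0852 in limma). It was read from cluster 10472095, a number outside those of the other genes here, which run from 10463282 to 10468016. Neighbours were placed by gene identifier, and where a cluster's probes lie was not tested. The count of 0 was not stable: Bloc1s2, Cox15, a factor of haem A synthesis, and Cutc passed as higher with the arrays centred and without SCD inhibitor 1, so that 3 of 16 passed there, and 2 genes passed in each of 4 other alternatives.

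**Figure D3:**
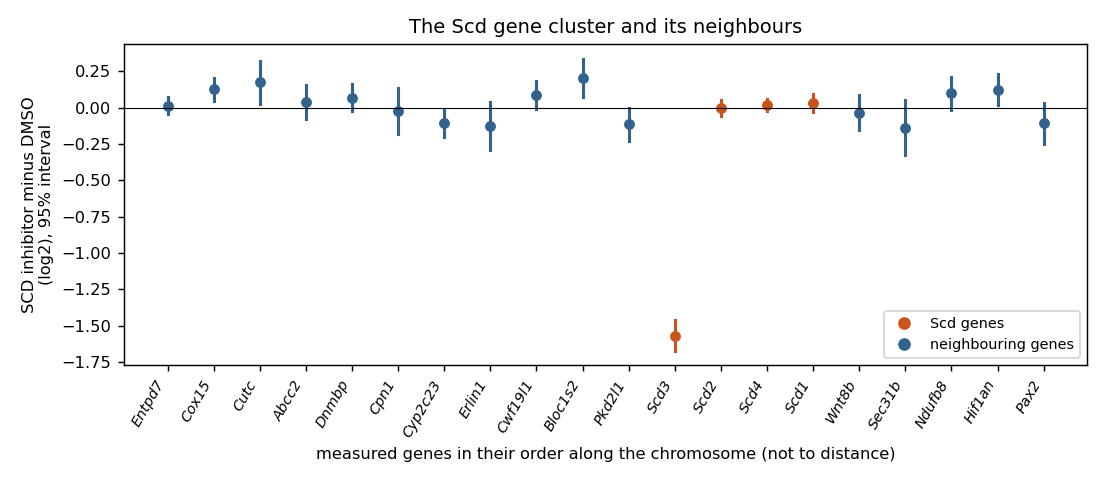
Difference between SCD inhibitor and DMSO (log2, points with 95% intervals) for the 4 Scd genes and the 16 measured neighbours, in their order along the chromosome and not to distance. Scd3 stands at -1.57, while its neighbours on both sides, Pkd2l1 at -0.12 and Scd2 at -0.0031, lie close to 0. Pkd2l1 lies near the lower end of the measuring scale and Scd2 near its upper end, where differences may come out too small.

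Promoters of 2 members, Scd3 and Scd4, were in the RefSeq table and are shown for that reason. Scd3 fell, while Scd4 lies near the lower end of the scale, where a fall may come out too small. The 2 promoters are thus not set against each other as responding and not responding. Both are the 250 bases before the gene's start on the plus strand of GRCm38.p6, at chr19:44203038-44203287 for Scd3 and chr19:44333076-44333325 for Scd4. Capitals mark the runs of at least 8 bases that the 2 windows share.
Scd3: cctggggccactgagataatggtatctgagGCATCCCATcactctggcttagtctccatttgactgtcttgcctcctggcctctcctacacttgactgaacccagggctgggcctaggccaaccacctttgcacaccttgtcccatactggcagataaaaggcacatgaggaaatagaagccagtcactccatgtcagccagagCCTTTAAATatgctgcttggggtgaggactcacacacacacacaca
Scd4: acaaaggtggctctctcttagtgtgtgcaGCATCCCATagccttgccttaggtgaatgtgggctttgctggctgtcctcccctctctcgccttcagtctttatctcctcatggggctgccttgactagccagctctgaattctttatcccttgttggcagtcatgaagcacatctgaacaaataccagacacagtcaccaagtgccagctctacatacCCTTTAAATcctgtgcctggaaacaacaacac

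The 2 windows were identical at 168 of 281 columns of a global alignment with gaps, or 59.8%. Other pairs of windows were not aligned, so whether this share is more than unrelated windows reach was not tested. The run GCATCCCAT begins 220 bases before the start in Scd3 and 221 in Scd4, and 0.177% of 32851 promoter windows of this length hold it on either strand. The run CCTTTAAAT begins 46 bases before the start in Scd3 and 32 in Scd4, and 0.423% of the windows hold it. The motifs CCAAT (the box bound by NF-Y), TCACNCCAC (a sterol regulatory element), CACGTG (an E-box), TATAAA and GGGCGG (a GC box) were searched on both strands of windows running a further 50 bases past the start. None of these letters stood in either gene's window, whereas the share of all windows with a match was 37.4% for CCAAT, 1.24% for TCACNCCAC, 7.15% for CACGTG, 13.6% for TATAAA and 35.7% for GGGCGG. A missing match says only that those letters are not in the window.

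Genes around the reaction were grouped by role into 5 lists of 43 measured genes, of which 8 rose and 9 fell, against 3.62% higher and 4.37% lower over all genes. Among the genes that supply electrons to the desaturases, 1 of 5 fell and 4 did not pass. Cyb5r1, which encodes a reductase of the cytochrome b5 family, read 8.45, 8.52 and 8.41 with the inhibitor, against 9.48, 9.64, 9.48 and 9.60 in DMSO. The groups did not overlap, and the difference of -1.09 (SE 0.051, adjusted p = 8.47e-05 in limma) was a 2.13-fold decrease. Cyb5r3, the reductase best known to serve fatty acid desaturation, averaged 12.007 ± 0.018 with the inhibitor (SD, n = 3) and 11.996 ± 0.0039 in DMSO (SD, n = 4). Cyb5r3 lies close to the upper end of the scale, where differences may come out too small. The electron carriers themselves did not pass either: Cyb5a had a difference of -0.09 (SE 0.046) and Cyb5b one of 0.07 (SE 0.030). The list's median difference was -0.09.

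Of 7 measured genes that supply saturated acyl-CoA, 2 rose and 3 fell, with a median of -0.26. The other 2 did not pass: Acacb at -0.26 (adjusted p = 0.0783 in limma), which is the median itself, and Acsl5 at 0.19 (adjusted p = 0.109). Acacb passed as lower in 4 of 17 alternatives and Acsl5 as higher in 6. Elovl6 lengthens palmitate to stearate, a substrate known for this enzyme family but not for each member alike. Its values were 9.03, 9.13 and 9.05 with the inhibitor, against 8.74, 8.70, 8.67 and 8.84 in DMSO. The groups did not overlap, and the adjusted p in limma was 0.00832, with 0.0807 without both arrays numbered 1. Acly, which makes acetyl-CoA from citrate, rose by 0.22 (SE 0.034), with an adjusted p of 0.101 without both arrays numbered 1. Acaca, the acetyl-CoA carboxylase of the cytosol, averaged 10.13 ± 0.061 with the inhibitor (SD, n = 3) and 10.51 ± 0.057 in DMSO (SD, n = 4), a difference of -0.38. The calls of Fasn, the fatty acid synthase, at -0.27 and of Acsl4, an acyl-CoA synthetase, at -0.36 were less stable. Fasn lost its call in 6 of 17 alternatives, with adjusted p from 0.0541 to 0.138 in limma there (without SCD inhibitor 1, each of the 4 DMSO arrays or both arrays numbered 1). Acsl4 lost it in 3, with 0.0507 to 0.0614 (without DMSO 4, SCD inhibitor 3 or both arrays numbered 1).

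Among 9 other desaturases and related enzymes with a di-iron centre, 4 rose and 1 fell, with a median of 0.09. Fads2, which desaturates polyunsaturated fatty acids and, in human cells, can also act on palmitate, read 12.08, 12.09 and 12.08 with the inhibitor, against 11.60, 11.57, 11.64 and 11.63 in DMSO. The groups did not overlap, with a difference of 0.48 (SE 0.022, adjusted p = 7.15e-05 in limma), although Fads2 lies close to the upper end of the scale. Fads1, its partner in the same pathway, rose by 0.42 (SE 0.030). Msmo1 and Sc5d, oxidases of sterol synthesis, rose by 0.47 (SE 0.036) and 0.36 (SE 0.039). Fa2h, a hydroxylase of fatty acids found in sphingolipids, read 4.68, 4.65 and 5.03 with the inhibitor, against 5.54, 5.60, 5.66 and 5.69 in DMSO. It thus fell by 0.83, with SCD inhibitor 3 nearest to the DMSO arrays, and its adjusted p of 0.00363 in limma became 0.0594 without both arrays numbered 1.

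Of 17 measured regulators of Scd transcription 2 rose and 2 fell, with a median of -0.02. Mlxipl, which encodes the carbohydrate-responsive factor ChREBP, read 5.23, 5.29 and 5.16 with the inhibitor, against 5.81, 6.12, 5.98 and 6.05 in DMSO. The groups did not overlap (difference -0.76, SE 0.073, adjusted p = 0.00175 in limma). Ppara, a nuclear receptor for fatty acids, read 4.83, 4.84 and 4.88 with the inhibitor, against 5.54, 5.39, 5.26 and 5.38 in DMSO, a difference of -0.54 (SE 0.061). Insig1, which holds the SREBP factors back in the endoplasmic reticulum, rose by 0.24 (SE 0.035, adjusted p = 0.00871 in limma). Nfya, a subunit of NF-Y, rose by 0.16 (SE 0.029, adjusted p = 0.0224), but its adjusted p lay between 0.0517 and 0.122 in 8 alternatives, among them each fit without 1 array except that without SCD inhibitor 1. Srebf1, the SREBP gene tied most closely to fatty acid synthesis, had a difference of 0.15 (adjusted p = 0.085 in limma). It passed in 4 of 17 alternatives, with adjusted p from 0.00494 to 0.0439. These were the fits without the dimmest 50% of genes, with array weights, without DMSO 1 and without both arrays numbered 1. The receptor gene Nr1h3, which encodes LXR alpha, had a difference of -0.01 and Rxra, its partner, one of -0.04.

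Among 5 measured genes whose products use monounsaturated fatty acids, 2 fell and none rose in limma, and the median was 0.03. None was higher at an unadjusted p under 0.05, where 10.9% of all genes were. Porcn, which attaches palmitoleate to Wnt proteins, read 7.35, 7.25 and 7.04 with the inhibitor, against 7.70, 7.59, 7.68 and 7.67 in DMSO. The groups did not overlap, with a difference of -0.45 (SE 0.071, adjusted p = 0.0122 in limma, and 0.0546 without both arrays numbered 1). Notum, which removes that lipid from Wnt proteins, had a difference of 0.03 at a level near the lower end of the scale. Dgat2, which makes triacylglycerol, fell by 0.47 (SE 0.026), and Dgat1, which catalyses the same step, differed by 0.05.

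**Figure D4:**
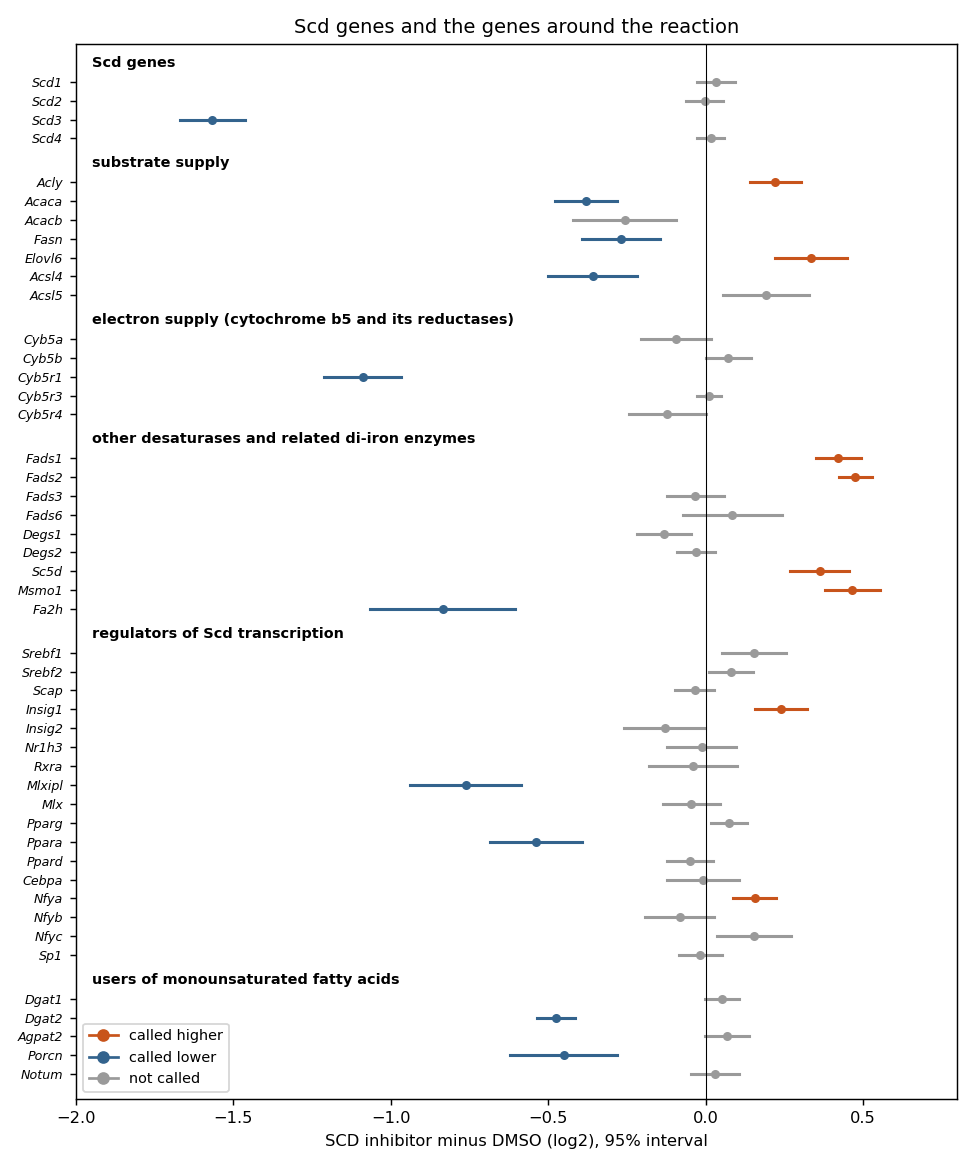
Difference between SCD inhibitor and DMSO (log2, points with 95% intervals) for the 4 Scd genes and the 43 measured genes of the 5 lists around the reaction, coloured by whether limma called them higher, lower or neither. Scd3 at -1.57 and Cyb5r1 at -1.09 lie farthest to the left.

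The genes with the profile closest to that of Scd3 were sought over the 7 arrays, by the root mean square difference between log2 values after each gene was set to its own DMSO mean. They were Ddo, D-aspartate oxidase (0.0766), Slc25a33, a mitochondrial carrier of pyrimidine nucleotides (0.0778), Ndrg2 (0.0821), Cmbl, a hydrolase (0.0946), and Smim41, a small membrane protein (0.0968). Their differences were -1.497 for Ddo, -1.52 for Slc25a33, -1.59 for Ndrg2, -1.62 for Cmbl and -1.56 for Smim41, beside -1.57 for Scd3. Ddo averaged 3.46 with the inhibitor and 4.96 in DMSO, near the lower end of the scale, where differences may come out too small. Inhibitor means of the other genes ran from 7.22 for Smim41 to 8.26 for Cmbl. Pearson's r with Scd3 was 0.992 to 0.997 over the 7 arrays, which mostly reflects the step between the groups that all 6 genes share. By size of decrease Scd3 stood at place 23 of 18820 genes.

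**Figure D5:**
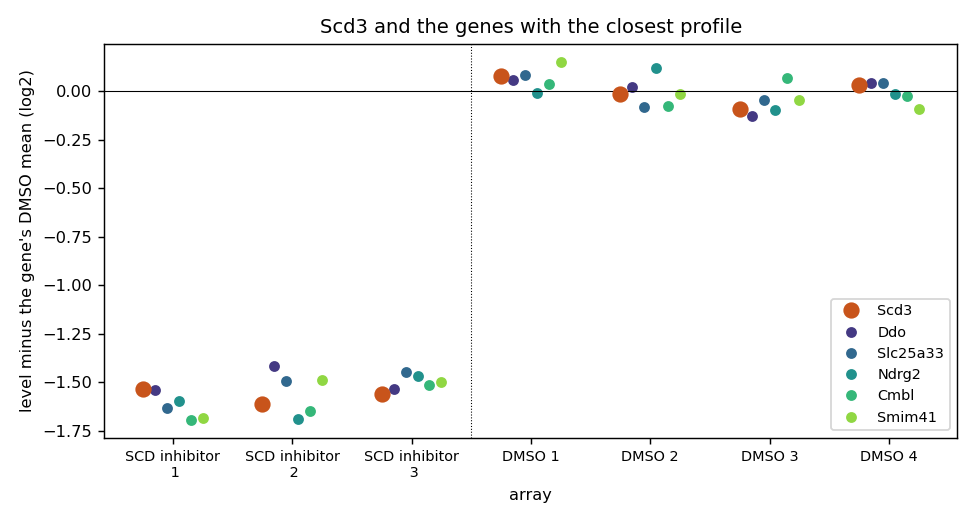
Level minus the gene's own DMSO mean (log2) on each array for Scd3 and the 5 genes with the closest profile, SCD inhibitor arrays left and DMSO arrays right of the dotted line. All 6 genes lie near 0 on the DMSO arrays and far below it on the inhibitor arrays, with mean differences from -1.62 to -1.497.

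For the other members the same search found genes that hardly varied. The closest to Scd1 was Fam174b (root mean square difference 0.00313), which read 4.69, 4.67 and 4.67 with the inhibitor, against 4.59, 4.67, 4.67 and 4.65 in DMSO, and so shared the low value of DMSO 1. The closest to Scd2 was Slc18a2 (0.00765) and the closest to Scd4 was Crisp4 (0.00246), neither of which passed the test. These likenesses describe small departures of single arrays.

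The cells carried the markers of fat cells in both groups. None of 8 measured adipocyte markers passed in limma, where 8% of all genes did. Before adjustment 2 of the 8 had p under 0.05 as higher and none as lower, against 2052 and 2075 of all 18820 genes. Their levels ran from 10.26 to 12.72 with the inhibitor, and from 10.27 to 12.71 in DMSO. Their summed linear signal was 36640 to 38010 with the inhibitor and 36820 to 37170 in DMSO. Adipoq, Fabp4, Cidec, Lpl and Retn lie at 12 and above, where 2 of 76 genes passed. Differences of the brightest clusters may come out too small, so whether the fat cell content was the same was not tested. Of 5 measured markers of precursors and fibroblasts 3 passed as higher with the inhibitor, where 3.62% of all genes did. They were Pdgfra by 0.89 (SE 0.093), Col1a1 by 0.41 (SE 0.036) and Dlk1 by 0.32 (SE 0.071, adjusted p = 0.0402 in limma). Dlk1 lost its call in 9 of 17 alternatives, among them each fit without 1 array except that without DMSO 1, with adjusted p from 0.0554 to 0.129 over the 9. Thy1, at 0.29 (adjusted p = 0.137), passed without SCD inhibitor 3 (adjusted p = 0.0122). The summed signal of these precursor and fibroblast markers was 4090 to 4279 with the inhibitor and 2856 to 3237 in DMSO, with Cd34 near the lower end of the scale in both. These values moved with the Scd3 decrease, and their part in it was not tested. In bulk RNA, fewer cells of a type and less RNA per cell cannot be told apart.

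Markers of macrophages, such as Adgre1 at 3.12 with the inhibitor and 3.11 in DMSO, and of endothelium, such as Kdr at 3.25 with the inhibitor and 3.23 in DMSO, lay near the lower end, apart from Cd68 at 5.89 with the inhibitor and 5.97 in DMSO, and none of these 7 genes passed in limma, nor did any at an unadjusted p under 0.05. Since Scd3 is known from sebaceous glands, 2 genes known from sebocytes were read beside it, and neither is taken here as specific to them. Krt79, a keratin of sebaceous ducts, averaged 6.73 ± 0.11 with the inhibitor (SD, n = 3) and 7.81 ± 0.12 in DMSO (SD, n = 4), a fall of 1.08 (-1.08). Mc5r, a melanocortin receptor, averaged 10.41 ± 0.14 with the inhibitor (SD, n = 3) and 9.99 ± 0.084 in DMSO (SD, n = 4) and rose by 0.43 (adjusted p = 0.0161 in limma), a call lost in 6 of 17 alternatives, among them the fits without DMSO 3, DMSO 4, SCD inhibitor 1 or SCD inhibitor 2, with adjusted p from 0.0529 to 0.078 over the 6. The hepatocyte genes Alb and Ttr lay at 3.47 and 3.34 with the inhibitor and at 3.46 and 3.33 in DMSO.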

How the data were processed

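The deposited table holds log2 expression values, which the authors produced by RMA according to the submitters' processing notes. The method corrects background, normalizes across arrays and summarises probes per transcript cluster. Version, genome build and filters: not given in the sources used here. Labelling started from 100 ng of RNA per the labels' protocols. Precision is limited by how many arrays there are. The table has 28996 clusters and 7 columns, each matched to a sample by name. Clusters with 1 symbol in the array annotation (21218) were reduced to the cluster with the highest mean per gene, giving 18820 genes. Dim genes were kept.

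All 7 arrays entered 1 limma 3.58.1 fit (lmFit and eBayes, R 4.3.3; 5 residual and 1.68 prior degrees of freedom) with a term for the inhibitor. Benjamini-Hochberg adjustment ran over all genes, and genes under an adjusted p of 0.05 were called. Pairs of members were compared with exact two-sided permutation tests on the absolute difference of means.

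The members, lists, tests and alternatives were chosen with earlier results of these data known. Genes named are the members, the lists, genes within 500 kb, the markers and the genes with the closest profile (5 for Scd3 and 3 for each other member, leaving out predicted, RIKEN, small RNA and olfactory or vomeronasal receptor genes). Cct2 and Cox8b were named after their values were seen. Listed genes without a cluster of a single symbol (Acsl1, Acsl3, Cyb5r2, Nr1h2, Soat1, Soat2, Cfd and Ly6a) were not analysed here. Promoters were aligned with Biopython 1.88, and plots were drawn with matplotlib 3.10.9.

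The alternatives tried were a block for the replicate number, further quantile normalization, centring, dropping the dimmest 25% or 50% of genes, trend and robust options, array weights, every cluster as its own row, the mean of a gene's clusters, and leaving out each array or both arrays numbered 1.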

Additional observations from a re-analysis of the deposited data

Results flagged for a closer look

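In groups of 4 arrays, a value was singled out by its gap to the nearest other value. The gap had to take up more of the group's range than Dixon's 95% critical value. Chance does so in about 1 of 20 groups of normal values without ties. Here 20.1% of all genes had the same value on at least 3 DMSO arrays, and 3 equal values beside a different one give a ratio of 1. The criterion was met in DMSO by 16 of the 99 members and named genes, markers included. Because of the ties, that count is not to be read against 1 of 20. For Scd2 the ratio was 0.923, with DMSO 1 above the others, and for Scd4 it was 1, with DMSO 1 below 3 equal values. DMSO 1 also stood apart for Cbln4 (0.856), Slc18a2 (0.868), Tll1 (0.948), Crisp4 (1), Dnmbp (1) and Cyb5r3 (1), of which Cbln4, Slc18a2, Tll1 and Crisp4 had been picked for a profile like that of Scd1, Scd2 or Scd4. For Cutc, a neighbour of the cluster, DMSO 3 was the low one (0.921). Among the markers DMSO 1 stood apart for Fabp4 (0.879), Pecam1 (0.885), Cdh5 (0.855) and Ttr (1), DMSO 2 for Csf1r (0.841), DMSO 3 for Ptprc (1) and DMSO 4 for Adgre1 (1). Without DMSO 1 the Scd2 difference was 0.015 and the Scd4 difference 0.013, neither past the test.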

How the results depend on the processing

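Scd3 passed as lower in all 17 alternatives run, with differences from -1.60 to -1.54 and adjusted p up to 0.00881 in limma. The response of Scd3 relative to the other members lay between -1.64 and -1.54 in every alternative run on pairs. Scd1 and Scd4 passed in none of theirs (differences of 0.010 to 0.055 and of 0.0034 to 0.029), and Scd4 is not in the fit that drops the dimmest 50%. Scd2 did not pass in any, and its difference turned positive after further quantile normalization (0.020), with centred arrays (0.0096), with array weights (0.010), and without both arrays numbered 1 (0.0225); without 1 array it ran from -0.0104 to 0.015. Among 43 listed genes 12 to 20 passed, against 17 with all arrays. Over all genes, 1505 passed with 682 higher and 823 lower. Higher genes numbered 1032 after further quantile normalization and 1117 with centred arrays. Without both arrays numbered 1, 808 passed, 434 higher and 374 lower. Without 1 array the total ran from 949 to 1294, the higher from 369 to 712 and the lower from 541 to 643. Of 27 called genes among the lists, neighbours, markers and closest profiles, 15 kept their call throughout, and 9 of 68 others passed in at least 1 alternative. The cause was not tested.

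The groups share the replicate numbers 1 to 3, but deviations of arrays with the same number correlated at 0.166, 0.102 and 0.00451, and only number 1 correlated best with its own number. With the replicate block 896 genes passed, 437 higher and 459 lower. Scd3 kept its call (-1.56, adjusted p = 0.00881), while Insig1 (0.0959), Ppara (0.0531), Porcn (0.0755), Sc5d (0.0557), Nfya (0.122), Dlk1 (0.113) and Mc5r (0.057) did not pass. The Scd3 response relative to Scd1, Scd2 and Scd4 over the same-numbered pairs was -1.59, -1.55 and -1.57.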

Other observations

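Repeated values were not spread evenly over the measuring scale. The same value on at least 3 of the 7 arrays was found for 75.8% of genes with a mean level under 5, for 29.3% of those from 8 up to 11 and for 51.3% of the 76 genes at 12 and above, where Scd1 and Scd2 lie. On all 7 arrays 94 genes held a single value. The DMSO arrays 2 and 3 carried the same value for Scd1, Scd2 and Scd4 but not for Scd3.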
